A study of Mus musculus with 30 samples.

Results

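In adipose tissue macrophages (ATMs), RNA was measured to ask whether GLP-1R agonism joined with blockade of IL-17A changed each transcript by the sum of what the single agents did. The comparison took 12 of the 30 libraries of the study, 3 each from the Vehicle, GLP1, IL17A and Combo groups of Ob/Ob recipients, where GLP1 stands for a GLP-1R agonist, IL17A for an antibody to IL-17A and Combo for both, and covered all 17059 genes in the deposited counts of ATMs. For each gene the departure from additive effects was Combo minus GLP1 minus IL17A plus Vehicle on the log2 scale. A departure of 0 means that Combo differed from Vehicle by the sum of both single-agent changes, and a positive or negative departure means that Combo lay above or below that sum.

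The study concerns myeloid disease driven by a mutant SHP2 phosphatase in obese hosts. Recipients were Ob/Ob mice, which lack leptin, on a C57BL/6J background and irradiated with 700 cGy and then 400 cGy. All 4 groups received BM cells of Shp2E76K/+;LysM-Cre+ donors, in which Cre is driven by the lysozyme promoter of myeloid cells, mixed with equal numbers of CD45.1+ Boy/J competitor cells. From 8 weeks after transplantation they were given vehicle, beinaglutide at 3 mg/kg s.c., the antibody in 3 weekly i.p. injections of 200 μg or both agents for 30 days, and F4/80+ cells were then sorted from visceral fat. The labels give an age of 12–14 weeks, 3 mice per group, mice of both sexes with groups matched for sex, and the same batch for every library. With treatment from 8 weeks after transplantation, that age cannot be the age at the sort. The paper gives a slightly younger age at irradiation. The labels give no donor or sex for single libraries, and competitor and mutant cells were not separated. The 3 libraries from WT recipients are not part of the departure. They entered the fit to estimate the spread, and so also took part in the scaling of libraries.

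GLP-1 is a gut hormone whose receptor, a G protein–coupled receptor, raises insulin secretion, slows feeding and signals through cAMP. IL-17A is a cytokine of Th17 and γδ T cells that acts with TNF to raise neutrophil-attracting chemokines, G-CSF and IL-6. In fat, macrophages clear lipid and dead adipocytes, and obesity brings in monocyte-derived cells with an inflammatory or a lipid-handling program. Glp1r itself was not analysed here.

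The 12 libraries held 25673711 to 45300263 counts on genes. Vehicle libraries had 14386 to 14506 genes with over 3 counts, Combo libraries 15110 to 15189, and GLP1 and IL17A libraries 16058 to 16403. The first principal component, with 46.4% of the variance, placed Vehicle at 183.1 to 187.5 and Combo at 104.2 to 108.8, and GLP1 and IL17A at -124 to -99.15. Vehicle and Combo therefore lay on the same side of that component, which is also the side they take in the departure.

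**Figure D1:**
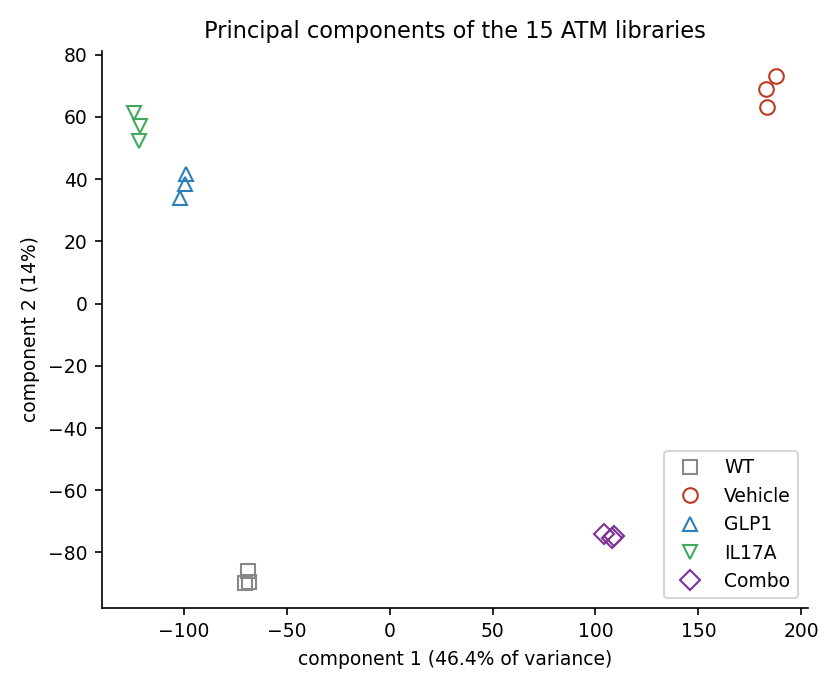
Principal components of log2 normalized counts in the 15 ATM libraries, with component 1 on the x axis and component 2 on the y axis and 1 symbol per library. On component 1, Vehicle and Combo lie at 104.2 or higher, and WT, GLP1 and IL17A at -68.6 or lower.

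Sex-linked transcripts split the libraries in the same way. Counts of Xist, the RNA that silences an X chromosome in female cells (chrX:103460366-103483254, GRCm38), were 747, 830 and 1024 in Vehicle and 1253, 1400 and 1098 in Combo. They were 0 in every GLP1 library and 0, 53 and 0 in IL17A. Ddx3y, on the Y chromosome, had 402, 351 and 165 counts in Vehicle, 309, 224 and 410 in Combo, 5180, 4230 and 6255 in GLP1 and 4413, 3892 and 3344 in IL17A. Vehicle and Combo thus had high Xist and low but measurable Y-linked counts in all 6 libraries, against the labels' matching for sex.

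Transcripts of other tissues moved with the same split. Genes of seminal vesicle took 0.0446% to 0.231% of counts in GLP1 and IL17A libraries and at most 0.000651% in Vehicle and Combo. Spermatid genes took 0.0635% to 0.0968% in GLP1 and IL17A libraries and at most 0.000427% in Vehicle and Combo. In the other direction, genes of squamous and mucosal epithelium, listed after their values were seen, took 0.112% to 0.124% in Vehicle, 0.0355% to 0.0377% in Combo and at most 0.000915% in the single-agent groups. Pancreatic acinar genes stood apart in Combo alone, at 0.185% to 0.189% against at most 0.00293% in the other 9 libraries.

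Since the departure sets Vehicle and Combo against GLP1 and IL17A, a non-additive response and a difference in the sex of the mice or in the tissue sampled cannot be told apart in it. Combo and Vehicle, and likewise IL17A and GLP1, are alike in Xist, so these 2 differences, on the log2 scale, are given beside the departure for the main genes. In bulk RNA, fewer cells of a type and less RNA per cell cannot be told apart either. As all libraries of a group show the same pattern, a term for sex could not be fitted beside treatment.

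**Figure D2:**
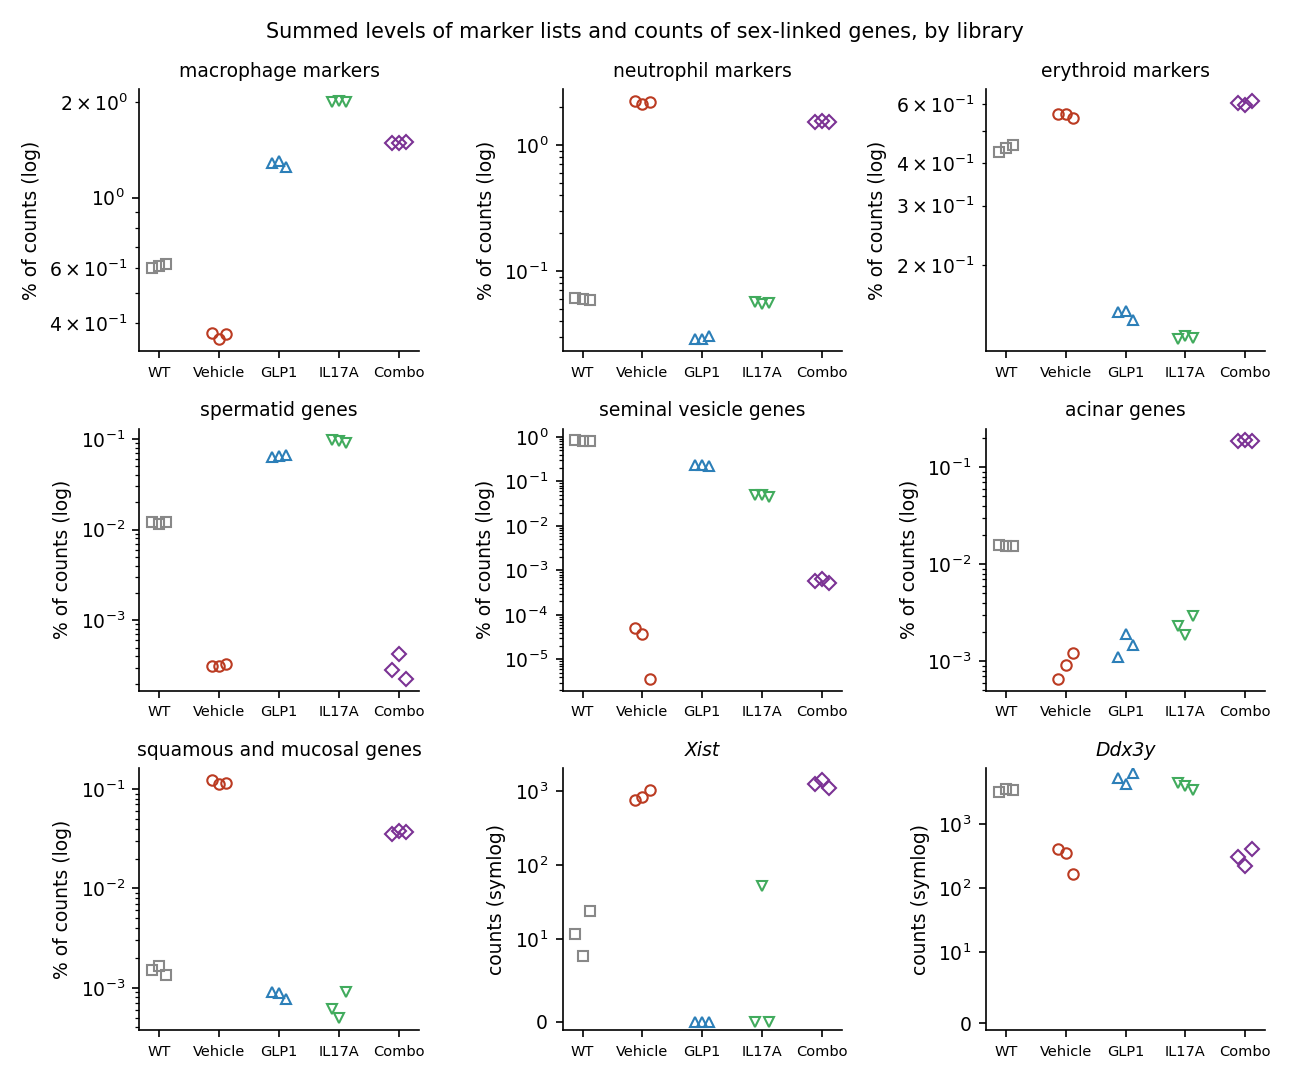
Percent of each library's counts on 7 marker lists (log axes) and raw counts of Xist and Ddx3y (symlog axes, linear below 10), with 1 symbol per library and 5 groups on the x axis. Xist, Ddx3y, spermatid and seminal vesicle panels set Vehicle and Combo apart from GLP1 and IL17A, and the acinar panel sets Combo apart.

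Departures were widespread. Of 17059 genes, 6122 (35.9%) were called at a false discovery rate below 0.05 with a log2 departure beyond 1 in either direction. Of these, 2202 (12.9% of genes tested) had a positive and 3920 (23.0%) a negative departure, and the median over all genes was -0.21. Leaving out genes with all libraries of some group at 3 counts or fewer, a filter chosen after the data were seen, left 2094 positive and 2470 negative calls. At the other end, the 95% interval of the departure lay within 1 of additive for 4014 genes (23.5%), and for 2919 of the 5855 genes with a mean over 1000 counts.

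A positive departure mostly marked genes that were highest in Vehicle and lower in each single-agent group. The Vehicle mean was the highest of the 4 in 1876 of the 2202 genes (85.2%, against 30.4% of all genes tested). A negative departure mostly marked the mirror image, with the Vehicle mean the lowest in 3120 of 3920 genes (79.6%, against 41.8% of all). Vehicle and Combo were both above both single agents in 1423 of the genes with a positive departure, and both below in 2993 of those with a negative one. The Combo mean lay outside the range of the other 3 groups in 22.3% and 24.6% of the genes, against 38.3% of all. These orders follow in part from the contrast itself and are given as a description.

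**Figure D3:**
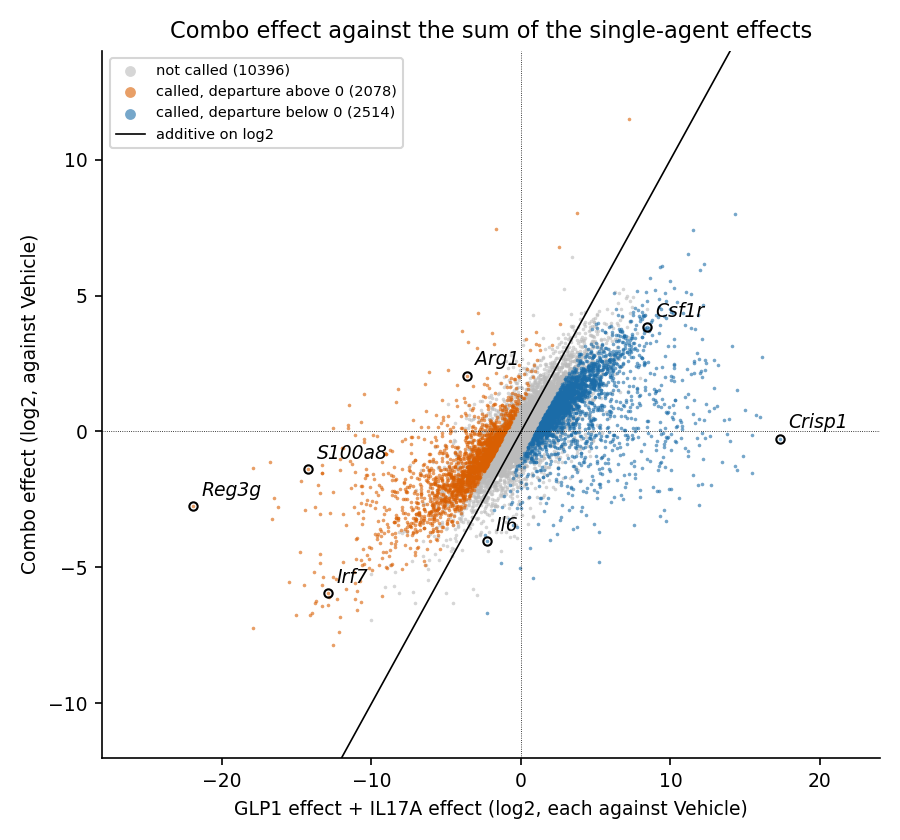
Log2 change in Combo against Vehicle (y axis) and the sum of the log2 changes in GLP1 and IL17A against Vehicle (x axis) for the 14988 genes with a library over 3 counts in each of the 4 groups, with the additive line. Called genes with a positive departure (2078) lie above the line, Irf7, S100a8 and Reg3g among them, and those with a negative one (2514), with Il6, below it.

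Interferon-stimulated genes, which cells turn on as an antiviral defense, were high in Vehicle and low in every treated group. All 16 members tested were called with a positive departure, beside 12.9% of all genes, and their median departure was 5.79. Median log2 changes against Vehicle were -5.07 in GLP1, -5.86 in IL17A and -5.25 in Combo. Irf7, a transcription factor that amplifies type I interferon (chr7:141262706-141266481), had normalized counts of 174450, 169560 and 174820 in Vehicle, 1916, 1760 and 1891 in GLP1, 1941, 2130 and 2183 in IL17A and 2574, 2724 and 3168 in Combo. Each treated library was far below each Vehicle library, and the 3 Combo libraries were above the 6 single-agent libraries. An additive response would have put Combo at 22.4, and the departure was 6.98 ± 0.0973 (SE, n = 3 per group, adjusted p = 2.49e-17). Combo differed from Vehicle by -5.94 and IL17A from GLP1 by 0.17.

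Cxcl9, a chemokine that draws in T cells and is induced by interferon-γ, showed the same order. Its normalized counts were 113500 to 126020 in Vehicle, 495 to 630 in GLP1, 711 to 845 in IL17A and 1022 to 1173 in Combo, with a departure of 8.29 ± 0.144 (adjusted p = 3.23e-16). Isg15, a ubiquitin-like modifier, was at 65172 to 70592 in Vehicle, 2068 to 2385 in GLP1, 1245 to 1381 in IL17A and 2134 to 2414 in Combo, where Combo overlapped GLP1 and lay above IL17A. Its departure was 5.69 ± 0.0979 (adjusted p = 3.04e-16). Ifit3, of a family of antiviral proteins, had means of 83170 in Vehicle, 1226 in GLP1, 724 in IL17A and 991 in Combo, for a departure of 6.54.

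The promoters of these genes are known for interferon response elements. A pair of GAAA repeats with any 2 bases between them, searched on both strands and allowing overlaps in the 250 bases before the start in RefSeq sequences (GRCm38.p6), was present for 7 of the 13 members with a promoter sequence (53.8%) and for 419 of 12790 genes tested with one (3.28%). Windows of 4 of the 7 are printed 5′ to 3′ along the gene's strand, with the motif or its reverse complement in capitals, chosen to show overlapping copies (Isg15), spaced copies (Ifit1 and Ifit3) and the copy nearest to a start (Oas1a). The last match ends 56 bases before the start in Isg15, 75 in Ifit1, 112 in Ifit3 and 4 in Oas1a. The windows lie at chr4:156200835-156200936 (minus strand), chr19:34640745-34640853 (plus), chr19:34583333-34583456 (plus) and chr5:120907526-120907585 (minus), in that order. A match is a description of the letters and was not tested as a site.
Isg15: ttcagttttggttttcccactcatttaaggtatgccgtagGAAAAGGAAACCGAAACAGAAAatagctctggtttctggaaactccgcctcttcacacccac
Ifit1: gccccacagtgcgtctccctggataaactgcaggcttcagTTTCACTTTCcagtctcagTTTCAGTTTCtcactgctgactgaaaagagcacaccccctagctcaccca
Ifit3: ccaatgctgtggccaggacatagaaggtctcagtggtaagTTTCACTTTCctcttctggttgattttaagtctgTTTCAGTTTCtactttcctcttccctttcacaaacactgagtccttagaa
Oas1a: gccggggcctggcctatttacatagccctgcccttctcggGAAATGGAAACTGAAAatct

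Of 20 TNF and NF-κB genes, 8 were called with a positive departure, beside 12.9% of all genes, and 0 with a negative one, with a median of 0.86. Tnf was at 19207 to 21235 in Vehicle, 2781 to 3373 in GLP1, 2144 to 2419 in IL17A and 2527 to 2874 in Combo, so that Combo overlapped GLP1 and lay just above IL17A (departure 3.05 ± 0.138, adjusted p = 3.68e-11). Combo differed from Vehicle by -2.93 and IL17A from GLP1 by -0.41. Nfkbia, the inhibitor that NF-κB induces against itself, had means of 146190 in Vehicle, 38453 in GLP1, 29251 in IL17A and 37898 in Combo (departure 2.30). Icam1, an adhesion molecule, had a departure of 0.06 ± 0.0618 with a 95% interval of -0.08 to 0.20, and that of Tnfaip2 was -0.03 ± 0.0804 with an interval of -0.21 to 0.15.

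Most IL-17 target genes had a positive departure. Of 21 tested, 14 (66.7%) were called with a positive departure and 2 (9.52%), Il6 and Csf3, with a negative one. Over all genes tested these shares were 12.9% and 23.0%, so negative calls were no more frequent here. The median departure was 1.96. The list holds S100a8, S100a9, Lcn2 and Mmp9, which neutrophils themselves express. Ccl2, which recruits monocytes, was at 125830 to 140780 in Vehicle, 28240 to 29112 in GLP1, 7723 to 8037 in IL17A and 6080 to 6997 in Combo. Combo lay below IL17A without overlap but above the additive level of 1701 (departure 1.96 ± 0.0703, adjusted p = 2.03e-12). Il17a was low everywhere, at 172 to 278 in Vehicle, 0.873 to 17.6 in GLP1, 27.2 to 36.4 in IL17A and 69.2 to 117 in Combo (departure 6.21 ± 0.99, adjusted p = 7.83e-05).

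In Il6 and Csf3, Combo lay below the sum of the single agents. Il6, a cytokine of the acute-phase response (chr5:30013114-30019981), had normalized counts of 18771, 17120 and 19389 in Vehicle, 13731, 13787 and 13793 in GLP1, 5533, 4924 and 4838 in IL17A and 1194, 1208 and 962 in Combo. No library of one group overlapped those of another, and Combo was the lowest. The additive level was 3810, and the departure was -1.76 ± 0.11 (adjusted p = 1.96e-09). Combo differed from Vehicle by -4.04 and IL17A from GLP1 by -1.43. Csf3, which encodes G-CSF, was at 6078 to 6743 in Vehicle, 3529 to 3905 in GLP1, 2082 to 2158 in IL17A and 357 to 580 in Combo, against an additive level of 1215 (departure -1.41 ± 0.174, adjusted p = 5.49e-06). Cxcl1, a neutrophil chemokine, had the same order of groups, with means of 58607 in Vehicle, 52440 in GLP1, 14761 in IL17A and 7031 in Combo. Its departure of -0.91 ± 0.079 stayed under the limit of 1.

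Few genes with a negative departure had all 3 Combo libraries below the other 9, as Il6 did, and their share was near that over all genes. All 3 Combo libraries lay below all other 9 in 179 of the 3920 genes with a negative departure (4.57%), beside 697 of all genes tested (4.09%), and above all other 9 in 171 of the 2202 with a positive departure (7.77%), beside 924 (5.42%). Among genes with a library over 3 counts in each group, the largest negative departures of this kind were in genes of germ cells and epididymis. These were Irgc1, Spink8 and Ddx4, with Combo means of 9.79, 2.79 and 4.61 and IL17A means of 2351, 1352 and 765. Their Vehicle means of 52.8, 28.0 and 53.2 were below both single agents, whereas Vehicle was the highest group for Il6. The largest positive departures of this kind under the same limit included the neutrophil granule genes Ltf, Ngp and Camp. These genes were picked after their values were seen.

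Neutrophil markers had the largest median departure of the blood cell lists. All 11 tested were called with a positive departure, beside 12.9% of all genes, and the median of these markers was 11.11. They were high in Vehicle and in Combo and low in both single-agent groups, at 2.12% to 2.24% of counts in Vehicle, 1.51% to 1.55% in Combo, 0.0287% to 0.0303% in GLP1 and 0.0546% to 0.0563% in IL17A. S100a8, a subunit of calprotectin (chr3:90668978-90670035), had normalized counts of 329580, 306940 and 318200 in Vehicle, 1505, 1531 and 1552 in GLP1, 3584, 3370 and 3375 in IL17A and 121620, 124020 and 119390 in Combo. The departure was 12.84 ± 0.0616 (adjusted p = 6.35e-23), and Combo differed from Vehicle by -1.39 and IL17A from GLP1 by 1.17.

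Ltf, the lactoferrin of neutrophil granules, was as high in Combo as in Vehicle. It was at 66829 to 70772 in Vehicle, 397 to 520 in GLP1, 1539 to 1756 in IL17A and 75736 to 76114 in Combo (departure 12.73 ± 0.125, adjusted p = 5.53e-19). Ltf is also a gene of the female reproductive tract and counts under both lists. Camp, a granule antimicrobial peptide, was at 5162 to 5575 in Vehicle, 122 to 187 in GLP1, 525 to 584 in IL17A and 11113 to 11763 in Combo, which lay above Vehicle. The high marker levels in Vehicle and Combo move with Xist, and the part of neutrophils in the other departures was not tested.

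Of 8 monocyte genes, 5 (62.5%) were called with a positive and 2 (25%) with a negative departure, beside 12.9% and 23.0% of all genes. Ly6c2, a marker of inflammatory monocytes, was at 17697 to 19019 in Vehicle, 2066 to 2282 in GLP1, 2081 to 2327 in IL17A and 8265 to 9050 in Combo, with the Combo level between Vehicle and the 2 nearly equal single agents. All 4 erythroid markers tested had positive departures. Alas2, the first enzyme of heme synthesis in red cells, had means of 220980 in Vehicle, 48527 in GLP1, 37641 in IL17A and 174180 in Combo (departure 4.40), and 15.5% of its exon bases are shared with other gene models. Of 6 plasma cell markers, 4 were called with a positive departure, led by Mzb1 at 3.04 ± 0.276, with Combo at 4369 to 4506 and the other 9 libraries at 277 to 804. Of the annotated exon bases of Mzb1, 57.2% overlap another gene model, so its reads may be shared.

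**Figure D4:**
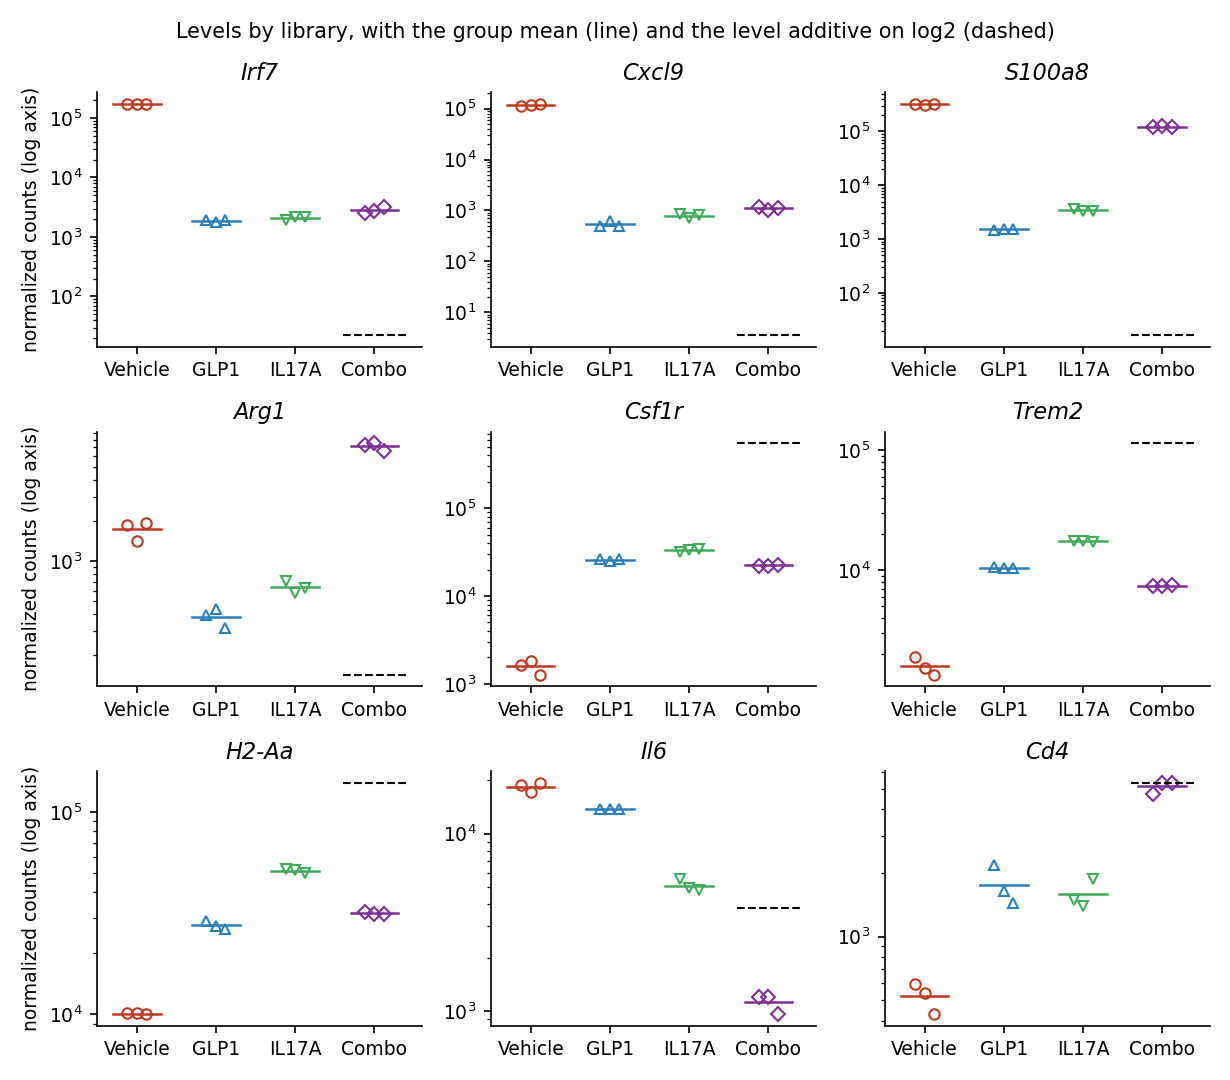
Normalized counts (log axes) of 9 genes in the 12 libraries, with 1 symbol per library, a line at each group mean and a dashed line at the level that additive effects on log2 would give Combo. Irf7 and Cxcl9 are low in all treated groups, S100a8 returns in Combo, Csf1r, Trem2 and H2-Aa fall short of the dashed line, Il6 lies under it and Cd4 on it.

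Macrophage markers had mainly negative departures. Of 13 defining markers, 10 were called with a negative departure, beside 23.0% of all genes, and Fcgr1 and Cd14 with a positive one, and the median was -2.01. They took 0.357% to 0.374% of counts in Vehicle, 1.25% to 1.30% in GLP1, 2.00% to 2.02% in IL17A and 1.49% in each Combo library. Csf1r, the receptor for M-CSF on which macrophages depend (chr18:61100598-61132149), had normalized counts of 1659, 1804 and 1274 in Vehicle, 26422, 25167 and 26558 in GLP1, 32068, 33604 and 34703 in IL17A and 22079, 22234 and 22788 in Combo. All treated libraries were above all Vehicle libraries and Combo was the lowest of the treated groups. The departure was -4.62 ± 0.12 (adjusted p = 3.81e-14), from an additive level of 552000, and 15.1% of its exon bases are shared with Hmgxb3. Combo differed from Vehicle by 3.82 and IL17A from GLP1 by 0.36.

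Adgre1 encodes F4/80, the antigen used for the sort. It was at 1002 to 1738 in Vehicle, 12445 to 13372 in GLP1, 28678 to 29674 in IL17A and 13111 to 13434 in Combo (departure -4.33 ± 0.183, adjusted p = 1.61e-11). GLP1 and Combo overlapped, and differed by 0.04 on the log2 scale. The F4/80 transcript was thus lowest in the sorted cells of the Vehicle group, where the neutrophil markers were highest. Combo and GLP1 were alike in Adgre1, but neutrophil markers took 1.51% to 1.55% of counts in Combo and 0.0287% to 0.0303% in GLP1. A link between the F4/80 transcript and these markers was not tested.

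Genes of lipid-associated and resident macrophages had mainly negative departures too. Of 14 lipid-associated genes, 10 were called with a negative departure and 1, Fabp4, with a positive one, beside 23.0% and 12.9% of all genes. Trem2, the lipid receptor that marks these cells, was at 1341 to 1866 in Vehicle, 10349 to 10571 in GLP1, 17115 to 17573 in IL17A and 7365 to 7457 in Combo (departure -3.96 ± 0.115, adjusted p = 1.60e-13). Combo was below both single agents without overlap, and differed from Vehicle by 2.23. Apoe, a carrier of cholesterol out of the cell, had means of 30172 in Vehicle, 192840 in GLP1, 188260 in IL17A and 109340 in Combo (departure -3.46), whereas Spp1, Plin2 and Cd9 were not called. Of 9 genes of resident macrophages, 6 were called with a negative departure, led by F13a1, a subunit of a clotting factor, with means of 275 in Vehicle, 17520 in GLP1, 9038 in IL17A and 9615 in Combo (departure -5.92). Cbr2 and Lyve1 had departures of 0.34 ± 0.117 and 0.24 ± 0.271.

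Genes associated with M2 polarization did not move as a block. Of 14 tested, 6 (42.9%) were called with a positive and 6 (42.9%) with a negative departure, and the median was 0.61. Over all genes tested the shares were 12.9% and 23.0%. The study's text named 6 of the 14 from these samples, so the list is not independent evidence of a direction. Arg1, the arginase of alternatively activated macrophages (chr10:24915221-24927484), had normalized counts of 1841, 1409 and 1916 in Vehicle, 396, 438 and 319 in GLP1, 712, 574 and 629 in IL17A and 7327, 7546 and 6614 in Combo. Both single agents were below Vehicle and Combo was above it, each without overlap, for a departure of 5.66 ± 0.216 (adjusted p = 4.34e-12). Combo differed from Vehicle by 2.06 and IL17A from GLP1 by 0.74. Chil3, a chitinase-like protein, was at 22484 to 24218 in Vehicle, 4076 to 4365 in GLP1, 3235 to 3750 in IL17A and 30385 to 31390 in Combo.

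Mrc1, which encodes CD206, ran the other way. It was at 140 to 470 in Vehicle, 4117 to 4361 in GLP1, 6074 to 6329 in IL17A and 3368 to 3901 in Combo (departure -4.78 ± 0.367, adjusted p = 2.41e-08). Retnla was at 1101 to 1311 in Vehicle, 3075 to 3323 in GLP1, 5896 to 6070 in IL17A and 1431 to 1517 in Combo, so that Combo was near Vehicle although each agent alone was well above it. Nos2, which makes nitric oxide from arginine, had means of 2980 in Vehicle, 97.8 in GLP1, 143 in IL17A and 696 in Combo (departure 7.21). Il10 was called at -1.03 ± 0.23. It stayed called in 6 of the 12 fits that left out 1 library, and moved inside the limit of 1, to -0.96 at the smallest, without Vehicle replicate 2 or 3, GLP1 replicate 1 or 2, or Combo replicate 2 or 3. Il10 was also not called in the 12 libraries alone (-0.92) or with DESeq2 (-0.9998). The same held when it was tested against a log2 departure of 1.

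Of 10 MHC class II genes, 8 were called with a negative departure and 0 with a positive one, with a median of -1.74. Over all genes tested the shares were 23.0% and 12.9%. H2-Aa was at 10021 to 10141 in Vehicle, 26482 to 28873 in GLP1, 49639 to 52364 in IL17A and 31137 to 32167 in Combo, below the antibody alone (departure -2.14 ± 0.0506, adjusted p = 1.10e-14). Ciita, the master regulator of these genes, was not called. It was at 76.3 to 92.2 in Vehicle, 88.6 to 91.6 in GLP1, 408 to 670 in IL17A and 681 to 773 in Combo, against an additive level of 574 (departure 0.32 ± 0.302, 95% interval -0.35 to 1.00).

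Of 13 T cell markers, 7 were called with a negative departure and 0 with a positive one, beside 23.0% and 12.9% of all genes. Cd4 was at 430 to 597 in Vehicle, 1446 to 2175 in GLP1, 1388 to 1881 in IL17A and 4732 to 5358 in Combo. Its additive level was 5332, and the departure of -0.05 ± 0.217 had a 95% interval of -0.53 to 0.44. Cd3d, at -0.36 ± 0.248, and Cd96, at -0.27 ± 0.447, were likewise highest in Combo and not called. Cd8a differed from them: it was at 18.7 to 88.1 in Vehicle, 1104 to 1251 in GLP1, 1229 to 1676 in IL17A and 986 to 1079 in Combo, for a departure of -4.71 ± 0.452 (adjusted p = 3.27e-07). Of 8 B cell markers, 0 were called by edgeR or DESeq2, and 3 had an unadjusted p below 0.05, of which Ebf1 (-0.98 ± 0.12) was just inside the limit of 1. The 95% intervals of Cd79a (-0.51 to 0.19) and Cd79b (-0.95 to 0.24) lay within 1, and those of the other 6 reached beyond it, so that additivity was not shown for them.

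Among checkpoint and T cell regulation genes, 8 of which the study's text named from these samples, 3 of 16 (18.8%) were called in each direction, beside 12.9% (positive) and 23.0% (negative) of all genes. Cd274, which encodes PD-L1, was at 27003 to 28856 in Vehicle, 4486 to 5260 in GLP1, 2504 to 2628 in IL17A and 4060 to 5368 in Combo. Combo overlapped GLP1 and lay above IL17A (departure 3.36 ± 0.152, adjusted p = 3.68e-11), and 14.1% of its exon bases are shared with another gene model. Pdcd1, the receptor for PD-L1, was at 1730 to 1889 in Vehicle, 5757 to 6167 in GLP1, 3741 to 4569 in IL17A and 1359 to 1653 in Combo (departure -3.16 ± 0.133, adjusted p = 1.52e-11). It was above Vehicle with each agent alone and below it with both. Tyk2, a kinase of interferon and IL-12 receptors, had a departure of 0.50 ± 0.205 (adjusted p = 0.0557), with means of 1041 in Vehicle and 1981 in Combo, and Ctla4 one of 0.01 ± 0.147.

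**Figure D5:**
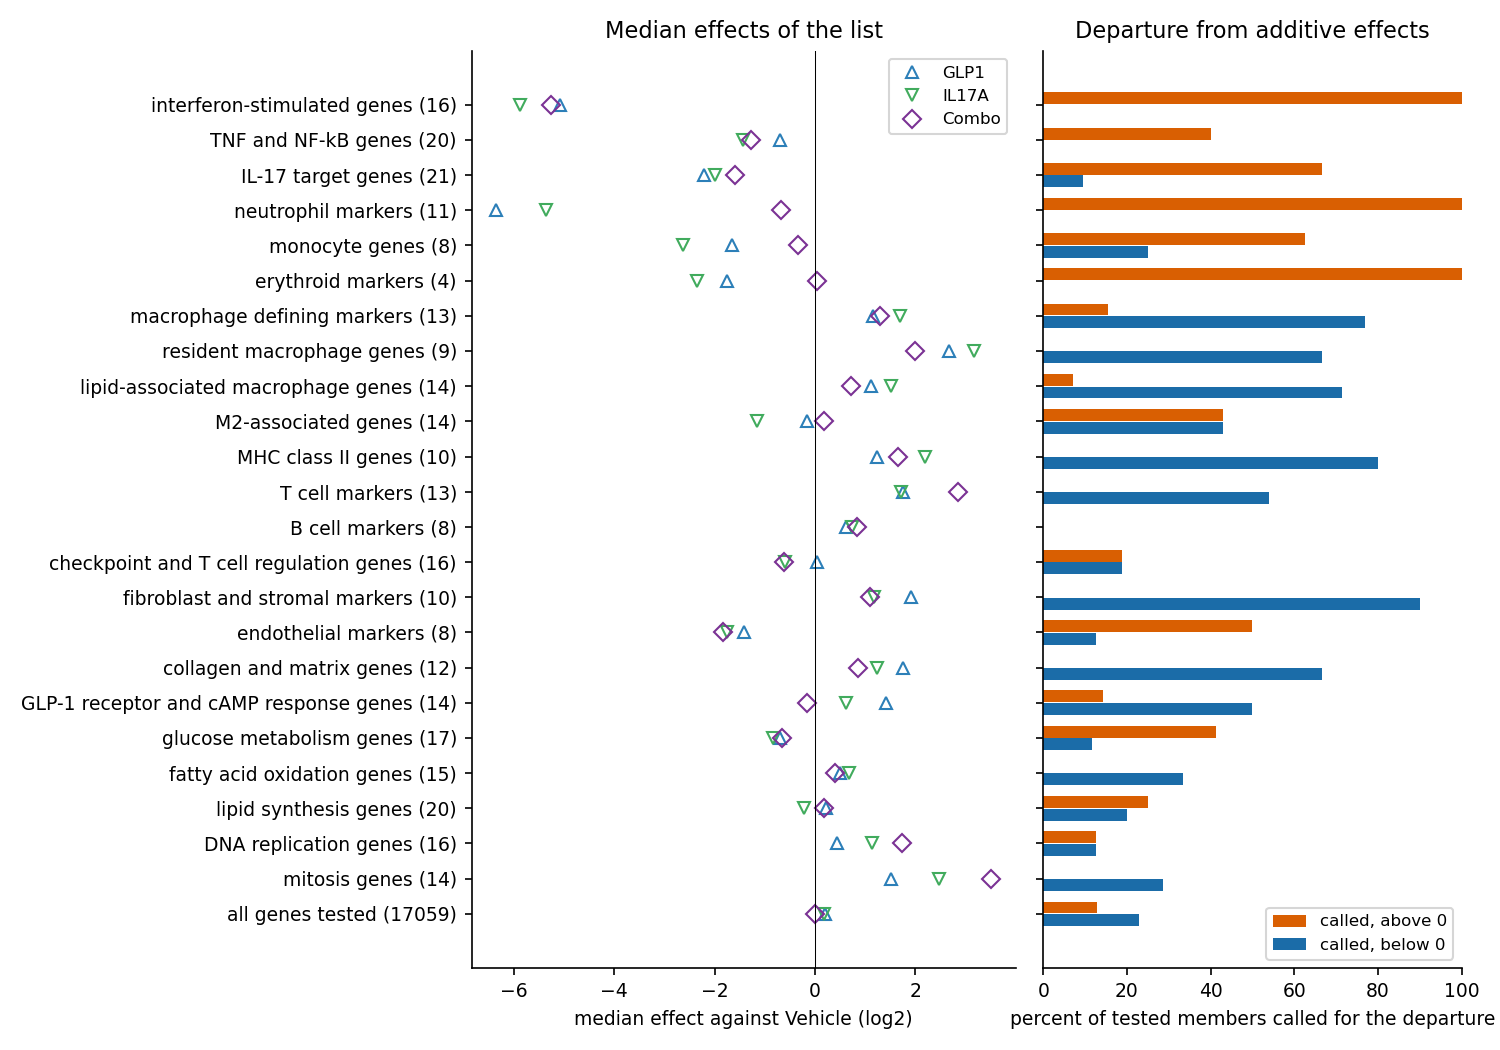
Median log2 change of 23 gene lists and of all genes against Vehicle in GLP1, IL17A and Combo (left), and the percent of tested members called for a positive or a negative departure (right), with the number of genes tested in parentheses. Combo symbols fall near those of the single agents for interferon-stimulated genes and return toward 0 for neutrophil markers, and the bottom row gives the share over all 17059 genes.

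Stromal genes had negative departures. Of 10 fibroblast and stromal markers, 9 were called with a negative departure and 0 with a positive one. Among 12 collagen and matrix genes the counts were 8 and 0. Over all genes tested the shares were 23.0% and 12.9%. Col6a1 was at 8421 to 9218 in Vehicle, 51687 to 52368 in GLP1, 25841 to 27383 in IL17A and 21664 to 22877 in Combo (departure -2.82 ± 0.0816, adjusted p = 1.47e-13). Endothelial markers went the other way, with 4 of 8 called with a positive departure and Tek with a negative one. Cdh5, the cadherin of endothelial junctions, was at 18850 to 23450 in Vehicle and at 2620 to 3161 in all 9 treated libraries, with the 3 treated groups overlapping (departure 2.7 ± 0.116, adjusted p = 1.98e-11). Markers of both cell types in a macrophage sort move with the treatment groups, and their part in other departures was not tested.

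Of 17 glucose metabolism genes, 7 (41.2%) were called with a positive and 2 (11.8%) with a negative departure. Pfkl, the liver-type phosphofructokinase, was at 5937 to 6780 in Vehicle, 1301 to 1472 in GLP1, 1846 to 2316 in IL17A and 2633 to 2789 in Combo (departure 2.60 ± 0.123, adjusted p = 6.22e-11). Slc2a1, the glucose transporter GLUT1, had means of 18374 in Vehicle, 5621 in GLP1, 3240 in IL17A and 3713 in Combo (departure 1.91 ± 0.117). Of 15 fatty acid oxidation genes, 5 (33.3%) were called with a negative departure and 0 with a positive one, beside 23.0% and 12.9% of all genes. Acadm, a dehydrogenase of this pathway, had means of 637, 1680, 2085 and 1628 in the same order (departure -1.75 ± 0.156). Of 20 lipid synthesis genes, 5 were called with a positive and 4 (20.0%) with a negative departure, the latter under the share over all genes, and Acly, Acaca, Srebf1 and Srebf2 were not called.

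A list of incretin and cAMP response genes gave 2 positive and 7 negative calls among 14, beside 12.9% and 23.0% of all genes. It holds the receptors Gipr and Gcgr and the incretin protease Dpp4, which is 1 of the 7, beside genes of the response to cAMP, the second messenger of the GLP-1 receptor. Crem, a cAMP-induced regulator of transcription, was at 3835 to 4402 in Vehicle, 12661 to 12970 in GLP1, 5436 to 6661 in IL17A and 3102 to 3216 in Combo (departure -2.60 ± 0.111, adjusted p = 1.81e-11). Its level in Combo was below Vehicle and thus opposite to GLP1 alone. Nr4a2 was at 1549 to 1970 in Vehicle, 6287 to 6463 in GLP1, 5844 to 7451 in IL17A and 2240 to 2762 in Combo. Fos, an immediate early gene outside that list, had a departure of 0.19 ± 0.0359 that passed the false discovery rate (adjusted p = 0.000359) but not the limit of 1.

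Median log2 changes of 14 mitosis genes were 1.51 in GLP1, 2.46 in IL17A and 3.50 in Combo, and 4 of them (28.6%) were called with a negative departure, near the 23.0% of all genes. Of 16 DNA replication genes, 2 (12.5%) were called in each direction, no more than over all genes, and Mcm6, a helicase subunit, had a departure of -0.06 ± 0.188. Mki67 had means of 188 in Vehicle, 394 in GLP1, 630 in IL17A and 2277 in Combo, with a departure of 0.78 ± 0.311 (adjusted p = 0.0484) under the limit of 1.

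The genes with the largest departures that stayed called in each of the 12 fits leaving out 1 library were mostly genes of epithelia, neutrophils and germ cells. Reg3g, an antimicrobial lectin of mucosal epithelium, was at 31537 to 34633 in Vehicle, 8.73 to 48.8 in GLP1, 6.39 to 12.6 in IL17A and 4854 to 4932 in Combo (departure 19.18 ± 0.455, adjusted p = 1.27e-14). The rest of the 12 most positive were Olfm4, Muc5b, Cxcl17, Sprr2f, Slfn4, Prss27, S100a8, Ltf, Stfa2, S100a9 and BC100530, down to 11.87. Crisp1, a sperm-coating protein of the epididymis, was at 0 to 19.5 in Vehicle, 1383 to 1498 in GLP1, 4165 to 5122 in IL17A and 0 to 13.8 in Combo (departure -17.62 ± 0.522, adjusted p = 1.93e-13). The other 11 most negative ran from 4933411K16Rik at -17.01 to 1110017D15Rik at -14.33, and included the sperm genes Tnp2, Meig1, Gsg1, Ldhc and Fabp9.

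In 2071 genes all libraries of at least 1 group had 3 counts or fewer, and 1530 of them were called. Of the 2071, 124 were called with a positive and 1406 with a negative departure, beside 12.9% and 23.0% of all genes. Positive calls were thus less frequent and negative calls more frequent than over all genes. For genes with such a group the fitted departure depends on the estimate at 0, and a bound with 3 counts per library is given. Sprr2d, a cornified envelope gene, had 0 in every GLP1 library and 7657 to 7829 in Vehicle, for a departure of at least 17.89. Svs5, a seminal vesicle protein, had 0 in every Vehicle library, 24479 to 25996 in GLP1, 5258 to 5676 in IL17A and 10.4 to 32.2 in Combo, for a departure of -20.76 or lower. Chil4, Ctrb1, Gp2 and Itgb2l were the other most counted genes of this kind with a positive departure, and Svs2, Svs4, Prm2 and Akap4 with a negative one. Pnlip and Cela3b, acinar enzymes at 0 in 9 libraries and at means of 3687 and 3406 in Combo, were not called by edgeR, whose standard error was undefined with 3 groups at 0, but were called by DESeq2 with departures of 15.17 and 15.06 (adjusted p = 1e-12 and 1.54e-12).

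Additivity can also be set on the scale of normalized counts, where Combo would equal GLP1 plus IL17A minus Vehicle. On that scale the departure had the opposite sign in 0 of the 2202 genes with a positive and 27 of the 3920 with a negative call (0.689%), beside 675 of all genes (3.96%). Where both single-agent groups differed from Vehicle in the same direction, the additive level on counts lies below that on log2. A positive sign then carries over by arithmetic, so these counts are not a separate check of the positive calls. Il6 was one of the 27: its departure was -1.76 on log2 and 679 ± 717 (SE) normalized counts, so that Combo was not shown to lie below the sum on counts. Csf3, at 1100 ± 239 normalized counts, had the opposite sign too, whereas Arg1 was positive on both scales, at 7862 ± 327 normalized counts. For Csf3 and Arg1, mean GLP1 plus IL17A minus Vehicle was negative, a level that counts cannot reach. Any Combo level would therefore have given them a positive sign on counts, and no conclusion is drawn from it.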

How the data were processed

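RNA-seq libraries of F4/80+ cells from visceral adipose tissue were analysed. The authors aligned paired reads to GRCm38 (mm10) with STAR 2.7.2a and deposited raw counts per GENCODE M22 gene, made with featureCounts 2.0.1. Strand was not used and a read over several genes was counted for each, so overlapping genes share reads. The deposited table holds 17059 genes, each with at least 54 counts over the 15 ATM libraries.

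The 15 libraries were fitted with edgeR 4.0.16 (R 4.3.3, limma 3.58.1) by TMM scaling and a robust quasi-likelihood fit with group means. WT was included for the estimate of the spread, and so also entered the scaling and the filter. The filter on low counts removed 0 genes. The departure was tested 2-sided with Benjamini-Hochberg adjustment over all 17059 genes, and a gene was called below 0.05 with a log2 departure beyond 1. Errors are SE from the fit, and intervals are 95% intervals from it. The common coefficient of variation was 32.5%, and the median per gene was 9.71% for genes with a mean over 1000 counts. Replicates of a group differed beyond counting noise, so that no library was counted as a resequenced copy of another. That excess does not show whether they came from separate mice or from a shared pool of cells, which was not tested. Some lists repeated closely within a group, such as pancreatic acinar genes at 0.185% to 0.189% of counts in Combo. SE and p-values therefore measure the spread between libraries. The labels give 3 mice per group. On simulated counts with 200 changed genes of 17059, edgeR recovered 75 of 100 at a log2 departure of 2 and 82 of 100 at 3, with 9 other calls. The simulated single-agent effects were much smaller than many in these data, and far fewer genes were changed than were called here. Changed genes were drawn from well-counted ones, and no group was set to the floor. These rates may therefore not carry over to the data.

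The members and gene lists were chosen with earlier results of these data known, so list counts and medians are descriptions, and p-values are adjusted over all genes. Genes named by rule are the 12 with the largest departure in each direction that stayed called in each fit leaving out 1 library, had a mean of at least 10 counts and had a library over 3 counts in each group. Up to 4 called members per list, marker genes, genes the study names in ATMs and up to 5 genes per direction with a group at 3 counts or fewer were also named. Other list members in the text were chosen after their values were seen. Alternatives were DESeq2 1.42.0, its size factors, other filters and limits, the 12 libraries alone, a replicate block and leaving out each library. Gene positions are from a GRCm38 annotation. BM libraries were not used here. Values of some list members are not reported here, though list counts and medians include them.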

Additional observations from a re-analysis of the deposited data

Results flagged for a closer look

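The test of the departure itself was passed by 6122 genes, 2202 with a positive and 3920 with a negative departure. Among the genes named by rule, the positive departures were 19.18 for Reg3g, 16.58 for Olfm4, 15.67 for Muc5b, 14.09 for Cxcl17, 13.47 for Sprr2f, 13.46 for Slfn4, 12.90 for Prss27, 12.84 for S100a8, 12.73 for Ltf, 12.48 for Stfa2, 12.07 for S100a9 and 11.87 for BC100530. The negative departures were -17.62 for Crisp1, -17.01 for 4933411K16Rik, -15.85 for Tnp2, -15.76 for Gm7444, -15.62 for Meig1, -15.61 for Gsg1, -15.46 for Ldhc, -15.15 for Dbil5, -14.69 for 1700020D05Rik, -14.64 for Fabp9, -14.59 for 1700011E24Rik and -14.33 for 1110017D15Rik. In these genes the Vehicle and Combo means both lay on the same side of both single-agent means, as did the counts of Xist. In these genes, as in all 6122, a response to the agents and a difference in sex or tissue sampled cannot be told apart. BC100530 shares 18.4%, Gsg1 18.5% and Fabp9 53% of exon bases with other gene models.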

How the results depend on the processing

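Of 6122 genes called, 2202 had a positive and 3920 a negative departure. Requiring at least 10 counts in every one of the 12 libraries left 3907 calls, 2003 of them negative, among 12133 genes. Keeping only genes with a library over 3 counts in each group, chosen after the data were seen, left 2470 negative calls. Both tested fewer genes. Without the fold limit 3530 positive departures were called, and 1458 when tested against a log2 departure of 1. DESeq2 called 6385, DESeq2's size factors in edgeR 6114 and the 12 libraries alone 5884. Those 12 libraries without WT gave 2395 positive and 3489 negative calls among 16878 genes. Their median departure was -0.095, against -0.21 with WT in the fit. Leaving out each library in turn gave 5846 to 6205 calls, 2119 to 2193 positive and 3712 to 4020 negative. In those fits Prss2 ranged from -0.54 (without Vehicle replicate 2) to 4.90 and Rnase1 from -1.57 (without Vehicle replicate 3) to 5.55, and neither was called where its sign reversed. The cause was not tested. Hk2, Ccnb2 and Prdm1 stayed called in 5, 4 and 4 of those 12 fits.

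Libraries with the same replicate number did not deviate together (r of -0.0258 to 0.021 over 18 pairs), so the numbers name samples only. With the number as a block, 5973 genes were called, 2137 positive and 3836 negative. A planned term for sex was not run, because it could not be fitted beside the groups. With 3 libraries per group, departures near 1 and genes of low counts were least certain.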

Other observations

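Acute-phase genes, which inflammation induces in liver and other tissues, gave 6 positive (75.0%) and 0 negative calls among 8, beside 12.9% positive over all genes. Saa3, a serum amyloid made by macrophages and adipocytes, had mean normalized counts of 112560 in Vehicle, 2534 in GLP1, 1865 in IL17A and 26442 in Combo (departure 9.30 ± 0.096). Haptoglobin, encoded by Hp, had means of 26953, 6698, 3943 and 13511 in the same order (3.79 ± 0.0784). In both, Combo lay between Vehicle and the single agents. Il1rn, the antagonist of the IL-1 receptor, had means of 20175, 6137, 7216 and 5740, with Combo beside the single agents (1.39 ± 0.0858). Adjusted p-values by edgeR were 9.20e-19 for Saa3, 2.64e-15 for Hp and 1.70e-09 for Il1rn.

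Genes of the hypoxia response gave 6 positive (60%) and 1 negative (10%) call among 10, beside 12.9% and 23.0% of all genes. Adm, which encodes the vasodilator adrenomedullin, had mean normalized counts of 14700 in Vehicle, 4969 in GLP1, 1810 in IL17A and 2879 in Combo (departure 2.23 ± 0.0843). Of 10 unfolded protein response genes, 4 were called, each with a positive departure (12.9% of all genes were), including Trib3, a pseudokinase induced by stress, with means of 2583 in Vehicle, 381 in GLP1, 161 in IL17A and 254 in Combo (3.43 ± 0.289). Hspa5, the chaperone that senses unfolded proteins, had a departure of 0.24 ± 0.0496 and was within the limit of 1. Genes of TGF-β and its response gave 1 positive (9.09%) and 5 negative (45.5%) calls among 11, beside 12.9% and 23.0% of all genes. Tgfbi, a secreted matrix protein, had means of 3064 in Vehicle, 9472 in GLP1, 8694 in IL17A and 9488 in Combo, nearly the same in all treated groups (-1.50 ± 0.113).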
